A study of Mus musculus with 4 samples.

Results

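The genes described here mark T cells and the lymphocytes that sit within the gut epithelium. They are 10 genes chosen by name, Cd3d, Cd3e, Cd3g, Cd4, Cd8a, Cd8b1, Foxp3, Gzma, Gzmb and Itgae, and each matched 1 of the 24016 gene rows of the deposited count table. The table holds RNA-seq of whole colon from germ-free C57BL/6 mice aged 7 weeks, in 4 libraries. One is from mice given Lactobacillus rhamnosus GG (LGG, a probiotic bacterium) by oral gavage, one from mice given Escherichia coli, one from mice given phosphate-buffered saline (PBS), and one from untreated mice. The labels give the same dose for both bacteria. Pieces of colon 4 cm long were excised 4 h after gavage. Each gavaged group had 4 mice per the labels, which do not state whether their RNA was pooled, and the animals carry no bacteria of their own before gavage. Each condition has 1 library, so no difference below has a replicate check, no p-value is given, and every interval is a 95% interval for counting error only.

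T cells carry an antigen receptor that signals through the CD3 chains. The co-receptors CD4 and CD8 bind MHC class II and class I, and mark helper and cytotoxic cells. Regulatory T cells depend on the transcription factor Foxp3, and cytotoxic cells kill through granzymes. Intraepithelial lymphocytes are mostly CD8-positive T cells held in the epithelium by the integrin CD103, the product of Itgae, which binds E-cadherin. Many of them carry CD8 as a pair of alpha chains without the beta chain. In mice their number and their granzyme content are known to depend on the microbiota, and germ-free colon is known to hold few induced regulatory T cells.

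The CD3 genes lie together on chromosome 9 in the table's mm9 coordinates, with Cd3g at 44777655 to 44788514 on the minus strand, Cd3d at 44789869 to 44795135 on the plus strand and Cd3e at 44806826 to 44817673 on the minus strand. Cd3g and Cd3d start head to head with 1354 bases between them. Their promoter windows and that of Cd3e are shown because these neighbours encode chains of a single receptor complex and are summed below. Each window runs from 250 bases before to 50 bases after the start, from RefSeq on build GRCm38.p6, and 7 of the 10 genes had such an entry. Capitals mark matches, on either strand, to the E protein site CAGNTG, the ETS core AGGAAG, the GATA core AGATAA, the RUNX core TGTGGT or the TATA box TATAAA.
Cd3g, chr9:44980382-44980681, minus strand: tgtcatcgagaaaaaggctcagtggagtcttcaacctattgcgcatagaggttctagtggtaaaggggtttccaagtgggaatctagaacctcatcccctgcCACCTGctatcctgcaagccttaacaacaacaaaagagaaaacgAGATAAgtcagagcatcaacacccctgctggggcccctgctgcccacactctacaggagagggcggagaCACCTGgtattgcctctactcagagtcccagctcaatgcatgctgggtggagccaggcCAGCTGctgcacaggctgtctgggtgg
Cd3d, chr9:44981536-44981835, plus strand: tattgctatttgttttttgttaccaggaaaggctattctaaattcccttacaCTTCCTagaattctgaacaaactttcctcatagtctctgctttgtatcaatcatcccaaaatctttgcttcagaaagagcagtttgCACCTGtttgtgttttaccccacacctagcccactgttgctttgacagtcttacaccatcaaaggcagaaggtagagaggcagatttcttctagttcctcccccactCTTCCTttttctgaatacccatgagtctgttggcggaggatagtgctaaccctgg
Cd3e, chr9:45009562-45009861, minus strand: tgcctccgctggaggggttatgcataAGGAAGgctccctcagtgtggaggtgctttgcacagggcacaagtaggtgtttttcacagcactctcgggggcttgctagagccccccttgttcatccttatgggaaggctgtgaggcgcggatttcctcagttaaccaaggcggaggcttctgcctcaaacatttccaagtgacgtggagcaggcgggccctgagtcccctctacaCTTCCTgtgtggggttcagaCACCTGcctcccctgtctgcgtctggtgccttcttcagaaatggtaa
The letters CAGNTG occurred in all 3 windows, with 3 matches in the Cd3g window and 1 each in the Cd3d and Cd3e windows; 51.4% of 32851 promoter windows of the same length hold them. AGGAAG matched 2 times each in the Cd3d and Cd3e windows and is in 35.4% of all windows. AGATAA matched 1 time, in the Cd3g window, and is in 11.2% of all windows. TGTGGT (16.8% of all windows) and TATAAA (13.6%) had no match in these windows. No motif overlapped another here, and a match is a description of letters only.

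Depth sets how far these genes can be read. The libraries held 29899371 counts (LGG), 29368008 (E. coli), 16289580.0 (PBS) and 27220697 (untreated) in genes. A count of 0 allows up to 0.103 CPM (counts scaled to library size) in the LGG, 0.103 in the E. coli, 0.187 in the PBS library and 0.105 in the untreated one. Epithelial genes took far more of the reads, with a summed level of 39705 CPM in the LGG, 36354 in the E. coli, 37016 in the PBS and 35016 CPM in the untreated library over 16 genes, whereas the 10 T cell genes together held 19.2, 21.3, 21.6 and 18.7 CPM in the same libraries. In bulk tissue, fewer cells of a type and less RNA per cell cannot be told apart.

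Per length, the 10 genes were near or below the middle of the table. Mean levels over the libraries, in CPM per kb of transcript, ran from 1.96 for Foxp3 through 1.35 for Cd4, 1.28 for Cd3g, 1.14 for Cd3e, 0.804 for Itgae, 0.691 for Cd3d, 0.284 for Cd8a, 0.274 for Cd8b1 and 0.227 for Gzma to 0.112 for Gzmb. Foxp3 was above 50.6% of all rows by this measure and Gzmb above 30.9%, a share that includes the 4749 rows at 0 in every library. The Foxp3 row may also hold reads of an overlapping gene, described below. The Foxp3 range over the libraries (1.90 to 2.06 CPM per kb) did not meet that of Cd4 (1.14 to 1.63). Those of Cd4, Cd3g and Cd3e overlapped, as did those of Itgae and Cd3d, and those of Cd8a, Cd8b1 and Gzma, with Gzmb overlapping Cd8b1 and Gzma. Of the 10 genes, 5 had a mean level of at least 1 CPM: Cd3e, Cd3g, Cd4, Foxp3 and Itgae. Cd3d (0.914 CPM) and Cd8a (0.887 CPM) lay just below it.

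**Figure D1:**
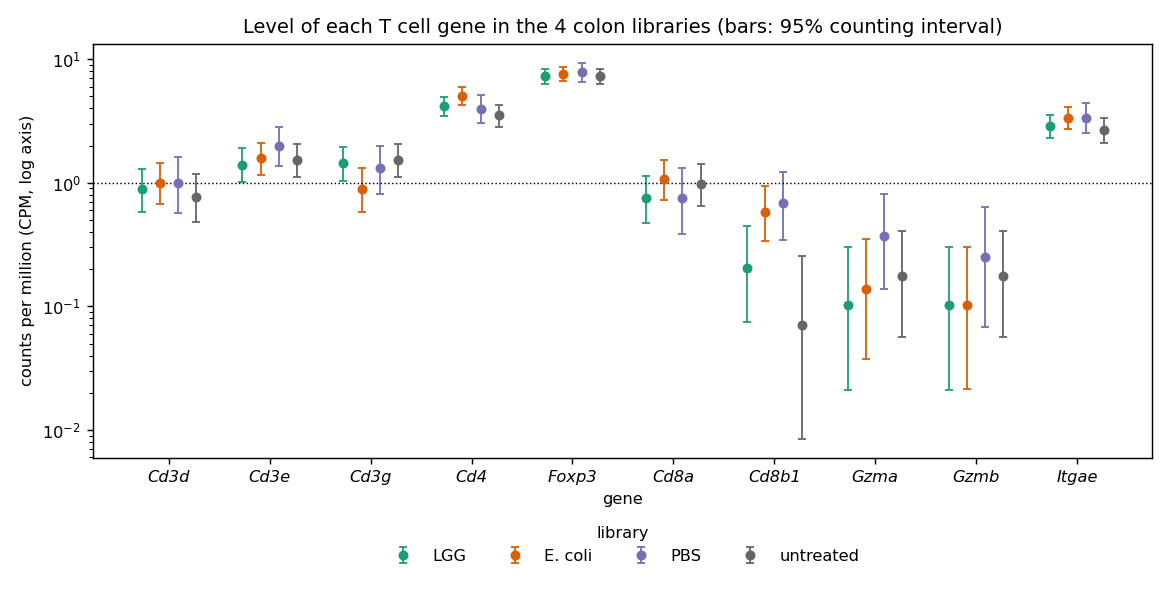
Level of each gene in CPM (log axis) in the LGG, E. coli, PBS and untreated libraries, with bars for the 95% Poisson counting interval and a dotted line at 1 CPM. Foxp3 lies between 7.24 and 7.85 CPM, while Gzma and Gzmb stay at or below 0.374 CPM with wide bars.

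The CD3 chains carry the signal of the T cell receptor into the cell. Cd3e was at 1.40 CPM in the LGG library, 1.58 in the E. coli, 1.99 in the PBS and 1.54 CPM in the untreated library, the PBS library being highest and all 4 intervals overlapping. Cd3d was at 0.889, 0.998, 0.997 and 0.771 CPM in the LGG, E. coli, PBS and untreated libraries. Cd3g was at 1.44 CPM after LGG, 0.895 after E. coli, 1.31 after PBS and 1.54 CPM without treatment, so that the E. coli library was the low one for Cd3g alone. The genes of the complex thus did not share an order of libraries.

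Summed, the CD3 genes had 109, 101, 69 and 110.0 rounded counts in the LGG, E. coli, PBS and untreated libraries, or 3.72 CPM (interval 3.06 to 4.49), 3.48 (2.83 to 4.22), 4.30 (3.35 to 5.44) and 3.85 CPM (3.17 to 4.64). The log2 ratio of the sum was -0.21 (-0.66 to 0.25) in LGG against PBS, and it was -0.30 (-0.76 to 0.16) in E. coli against PBS. It was 0.10 (-0.30 to 0.50) in LGG against E. coli and 0.16 (-0.30 to 0.61) in PBS against untreated. LGG against untreated gave -0.05 (-0.44 to 0.35) and E. coli against untreated -0.15 (-0.55 to 0.25). All of these intervals include 0, and none extends to a 2-fold difference. Cd247 encodes the zeta chain of the same complex, which natural killer cells also use, and is named here after its values were seen. It was at 5.19 CPM after LGG, 6.20 after E. coli, 5.48 after PBS and 7.36 CPM in the untreated library. Its log2 ratio was -0.50 (-0.81 to -0.19) in LGG against untreated, -0.25 (-0.54 to 0.05) in E. coli against untreated and -0.42 (-0.80 to -0.06) in PBS against untreated, short of 2-fold. Its ratios were -0.08 (-0.47 to 0.32) in LGG against PBS, 0.18 (-0.20 to 0.56) in E. coli against PBS and -0.25 (-0.58 to 0.07) in LGG against E. coli.

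Cd4, the helper co-receptor, was at 4.17 CPM in the LGG, 5.03 in the E. coli, 3.99 in the PBS and 3.50 CPM in the untreated library. In E. coli against untreated its log2 ratio was 0.52 (0.14 to 0.90), which excludes 0 but is smaller than 2-fold. In E. coli against PBS it was 0.33 (-0.10 to 0.78), and in LGG against PBS 0.06 (-0.38 to 0.52). Macrophages and dendritic cells of mice can carry Cd4 at low levels in some tissues. The list of 21 macrophage and dendritic cell genes in the table had a summed level of 261 CPM after LGG, 271 after E. coli, 266 after PBS and 266 CPM without treatment, with none at 0, and its part in the Cd4 values was not tested.

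Foxp3, the factor that defines regulatory T cells, had the highest counts of the 10 genes and the steadiest level. Its row may also hold reads of an overlapping gene, as described below, which bears on its rank, its steadiness and its ratio to Cd4. Foxp3 was at 7.24 CPM in the LGG, 7.61 in the E. coli, 7.85 in the PBS and 7.25 CPM in the untreated library. The 6 log2 ratios ran from -0.12 (-0.44 to 0.21) in LGG against PBS to 0.11 (-0.22 to 0.44) in PBS against untreated. Per kb, the ratio of Foxp3 to Cd4 was 1.40 (1.12 to 1.77) after LGG and 1.22 (0.988 to 1.52) after E. coli. It was 1.59 (1.17 to 2.18) after PBS and 1.67 (1.31 to 2.15) in the untreated library. The E. coli interval includes equal levels. Only part of CD4-positive cells carry Foxp3.

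The Foxp3 row (chromosome X, 7156802 to 7172369, plus strand, mm9) shares its ends with other genes of the table. Its last 1435 bases lie within Ccdc22, a gene of the opposite strand at 7170935 to 7182546 that encodes a protein of endosomal sorting and is used in most cells. Its first 1341 bases overlap the span of the non-coding gene Ppp1r3fos on the same strand. In the GENCODE M21 annotation of GRCm38, 590 of 3834 exon bases of the matching Foxp3 transcript (15.4%) are also exon bases of Ccdc22. Ccdc22 was at 19.2, 20.0, 19.7 and 19.8 CPM in the LGG, E. coli, PBS and untreated libraries. The ratio of Foxp3 to Ccdc22 per kb was 0.221 (0.188 to 0.259) after LGG, 0.223 (0.190 to 0.261) after E. coli, 0.234 (0.189 to 0.288) after PBS and 0.215 (0.182 to 0.252) without treatment. Since the sources used here do not state that counting used strand, reads of Foxp3 and Ccdc22 on that stretch cannot be told apart. Over the libraries Ccdc22 was at 8.59 to 8.93 CPM per kb and Foxp3 at 1.90 to 2.06. If strand was not used and reads were spread evenly, Ccdc22 reads could thus be far more than 15.4% of the Foxp3 counts, and even most of them. That share was not tested, and the Foxp3 level is uncertain.

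**Figure D2:**
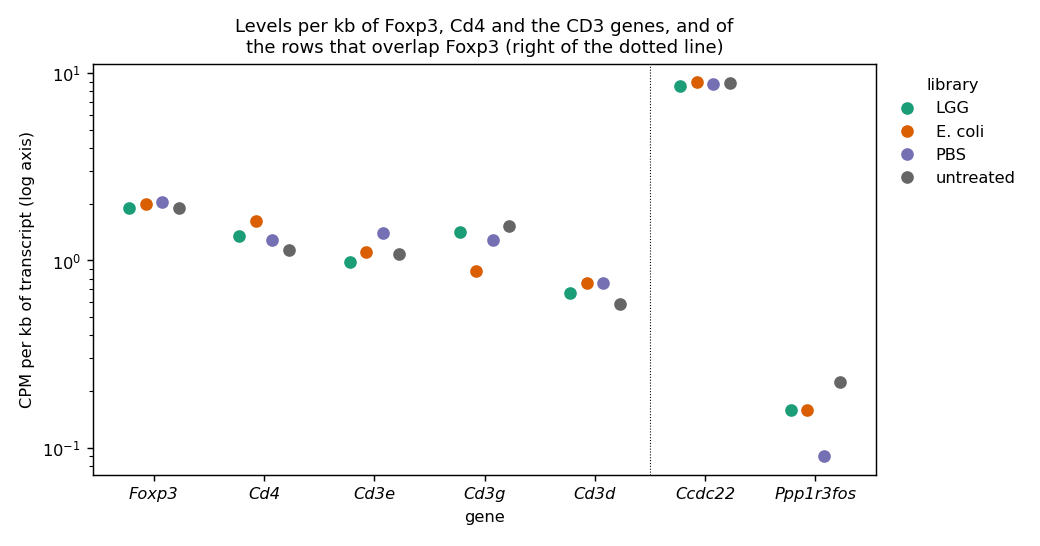
Level per kb of transcript (CPM per kb, log axis) in the 4 libraries for Foxp3, Cd4, Cd3e, Cd3g and Cd3d, and for Ccdc22 and Ppp1r3fos, whose rows overlap that of Foxp3. Foxp3 lies at 1.90 to 2.06 CPM per kb, above Cd4 in every library, and Ccdc22 at 8.59 to 8.93 CPM per kb. The Foxp3 row may also hold reads of Ccdc22, which bears on its place above Cd4.

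Cd8a encodes the alpha chain of the cytotoxic co-receptor. It was at 0.752 CPM in the LGG, 1.07 in the E. coli, 0.748 in the PBS and 0.981 CPM in the untreated library, and all 6 of its log2 ratios, from -0.49 in LGG against E. coli to 0.50 in E. coli against PBS, had intervals that include 0. Per kb, Cd4 exceeded Cd8a by 5.62 times (3.55 to 9.29) after LGG, 4.77 (3.22 to 7.28) after E. coli, 5.40 (2.89 to 11.0) after PBS and 3.62 times (2.36 to 5.72) in the untreated library. Cd4 was thus above Cd8a per kb in every library, and the intervals of this ratio overlapped across libraries.

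Cd8b1, the beta chain that conventional CD8 T cells add to the alpha chain, was the gene of the 10 that varied most. The deposited table gave it 6.5 counts in the LGG, 17 in the E. coli, 11 in the PBS and 2 counts in the untreated library, or 0.205, 0.585, 0.685 and 0.0701 CPM. The PBS and E. coli libraries were high, the untreated library was below the level that a count of 0 allows, and LGG lay between. The log2 ratio was 2.98 (1.09 to 6.51) in PBS against untreated and 2.76 (0.99 to 6.22) in E. coli against untreated. It was -1.65 (-3.46 to -0.18) in LGG against PBS and -1.43 (-3.14 to -0.10) in LGG against E. coli. With its count in the LGG library rounded up to 7, these were -1.45 (-3.12 to -0.02) and -1.23 (-2.80 to 0.05), so the last interval included 0. In LGG against untreated it was 1.33 (-0.93 to 4.89) and in E. coli against PBS -0.22 (-1.41 to 1.01).

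Within a library, where scaling plays no part, the ratio of Cd8b1 to Cd8a per kb was 0.605 (0.201 to 1.54) after LGG, 1.22 (0.631 to 2.27) after E. coli, 2.03 (0.813 to 5.03) after PBS and 0.158 (0.0183 to 0.628) in the untreated library. The intervals of the E. coli and PBS libraries lay above that of the untreated library. The largest count behind these Cd8b1 values was 17, and neither neighbouring genes nor copies of the row overlap it in the table.

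Granzymes A and B are the serine proteases of cytotoxic granules. Gzma had 3, 4.5, 5.5 and 5 deposited counts in the LGG, E. coli, PBS and untreated libraries, or 0.103, 0.138, 0.374 and 0.175 CPM. Gzmb had 3, 3, 4.5 and 5 deposited counts, or 0.103, 0.103, 0.249 and 0.175 CPM. These are a few counts per library, and all of their intervals included 0; in LGG against PBS they were -4.49 to 0.36 for Gzma and -4.05 to 1.28 for Gzmb. A difference of several fold in either gene would not be detectable at this depth.

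Itgae, the CD103 chain that anchors intraepithelial lymphocytes and is also carried by some dendritic cells, was at 2.87 CPM in the LGG, 3.34 in the E. coli, 3.36 in the PBS and 2.66 CPM in the untreated library. Its log2 ratios ran from -0.23 (-0.74 to 0.29) in LGG against PBS to 0.34 (-0.19 to 0.86) in PBS against untreated. Relative to the summed CD3 counts it stood at 0.771 (0.573 to 1.03) after LGG, 0.960 (0.719 to 1.28) after E. coli, 0.783 (0.538 to 1.13) after PBS and 0.691 (0.509 to 0.934) without treatment, all overlapping. The gene Gsg2, at 72948986 to 72951796 on chromosome 11 in mm9, lies on the opposite strand inside the span of Itgae, and shares no exon base with it in GENCODE M21. Itgb7, whose product pairs with CD103 and which is named here after its values were seen, was at 5.95, 6.30, 4.92 and 6.10 CPM in the LGG, E. coli, PBS and untreated libraries. Cdh1, which encodes the ligand E-cadherin, was at 1184 CPM after LGG, 1307 after E. coli, 1229 after PBS and 981 CPM without treatment. Per length, Cdh1 was at 223 to 297 CPM per kb over the libraries and Itgae at 0.700 to 0.885 CPM per kb.

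Across the whole group, none of the 10 genes was past the size rule, which asks for a log2 ratio of at least 1 in size, a counting interval that excludes 0 and a mean of at least 1 CPM. Among the 14450 genes that reached that mean, 1.45% were past the rule in PBS against untreated, 0.277% in LGG against PBS, then 0.415% in E. coli against PBS, 0.360% in LGG against E. coli, 1.04% in LGG against untreated and 2.35% in E. coli against untreated. With such shares, 0 of 5 is not a result about T cell genes. Without the filter on low values, Cd8b1 alone was past the rule, in PBS against untreated and E. coli against untreated on the higher side, where 0.820% and 1.06% of all genes were, and in LGG against PBS and LGG against E. coli on the lower side, where 0.311% and 0.323% were. With a 1.5-fold threshold in place of 2-fold, Cd3g was past the rule on the lower side in E. coli against untreated, as were 5.48% of all genes. Intervals that exclude 0 were found for 2 of the 5 genes in E. coli against untreated, Cd4 above and Cd3g below, at -0.77 (-1.54 to -0.05), where 47.3% of all genes tested had such an interval. In the other comparisons it was 0 of 5, against 38.5% in PBS against untreated, 27.4% in LGG against PBS, then 19.0% in E. coli against PBS, 32.6% in LGG against E. coli and 47.7% in LGG against untreated, shares that abundant genes with narrow intervals raise. Comparisons that share a library are not independent of each other, and the PBS library had the fewest counts.

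**Figure D3:**
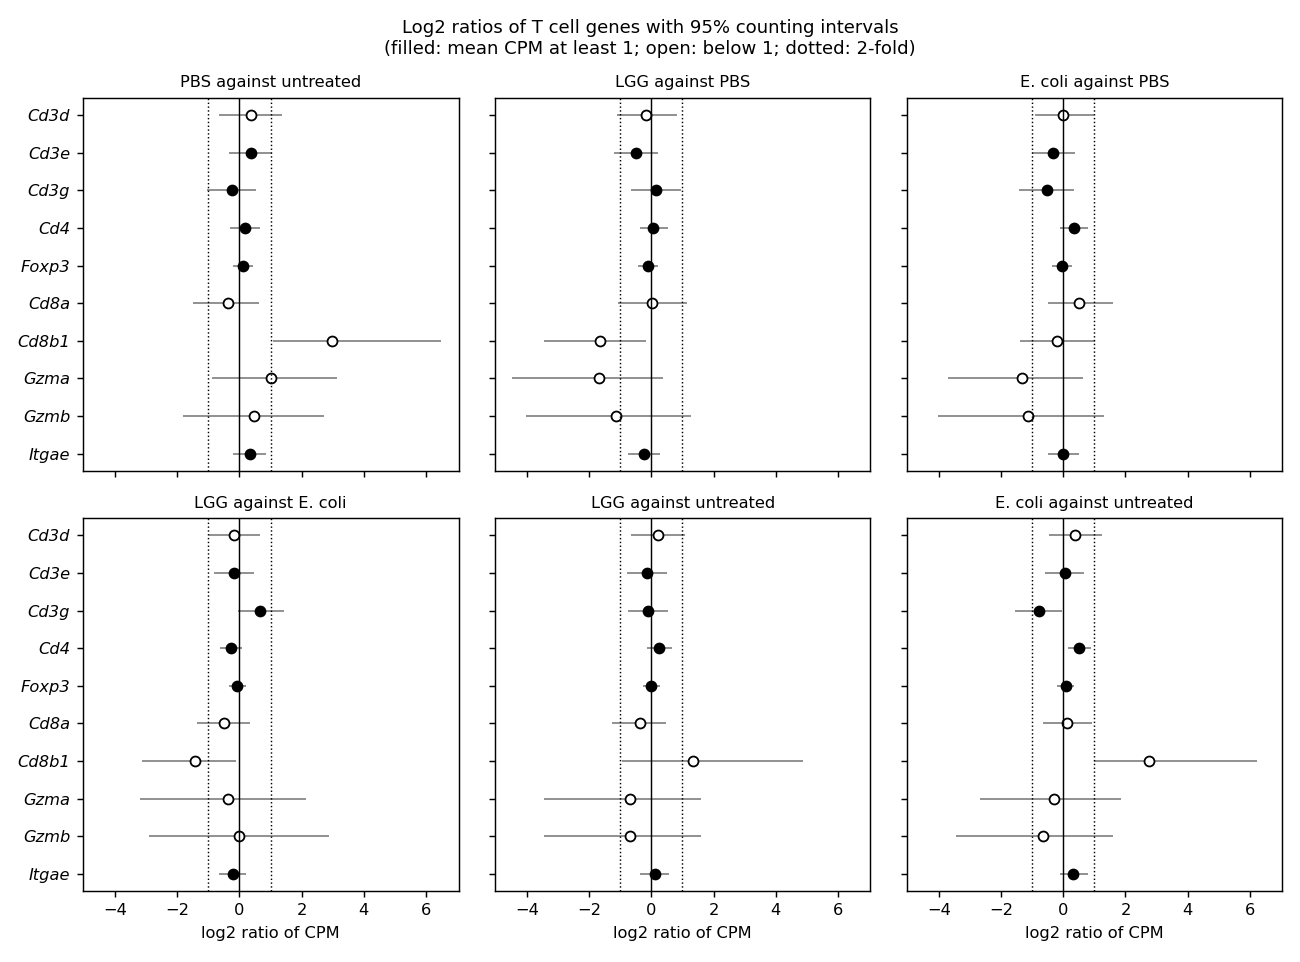
Log2 ratio of CPM for each gene in the 6 comparisons, with 95% counting intervals; filled points have a mean of at least 1 CPM, open points less, and dotted lines mark 2-fold. Foxp3, Cd4 and Itgae lie within 2-fold throughout, and Cd8b1 is at 2.98 in PBS against untreated.

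The median log2 ratio of the 5 genes with at least 1 CPM was 0.19 in PBS against untreated, -0.12 in LGG against PBS, then -0.05 in E. coli against PBS, -0.17 in LGG against E. coli, -0.0014 in LGG against untreated (0.0047 with DESeq2 size factors) and 0.07 in E. coli against untreated (-0.02 with library totals). The median of all genes tested lay between -0.0026 and 0.0046. Without Foxp3 and Itgae, whose rows overlap other genes, the median of the 3 genes left was 0.06 in LGG against PBS and -0.33 in E. coli against PBS. The direction of the median in LGG against PBS thus rests on those genes. In LGG against E. coli 1 of the 5 genes had a positive ratio, Cd3g at 0.67 (-0.06 to 1.45).

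Other T cell genes were read from lists, and in whole colon the cells behind the level of each listed gene cannot be told apart. Of 24 genes of T cell receptor signalling and pan-T cell identity, 17 had at least 1 CPM and none was past the size rule in any of the 6 comparisons. Against untreated, 2 of 17 had positive ratios after LGG (median -0.23), 6 of 17 after E. coli (-0.20) and 8 of 17 after PBS (-0.16), where 49.7%, 51.0% and 50.3% of all genes were positive. In LGG against PBS 4 of 17 were positive (-0.13), and in E. coli against PBS 9 of 17 (0.05). In LGG against E. coli 3 of 17 were positive (-0.12). The shares of all genes were 49.3%, 50.7% and 49.9%. The most abundant in CPM were Bcl11b, a transcription factor of T cell development, and Thy1, a surface protein of T cells that neurons and fibroblasts also carry. Bcl11b was at 19.6, 24.3, 20.6 and 19.6 CPM and Thy1 at 12.6, 13.2, 15.5 and 19.4 CPM in the LGG, E. coli, PBS and untreated libraries. Thy1 had a log2 ratio of -0.62 (-0.81 to -0.43) in LGG against untreated.

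The helper and regulatory list had 11 of 22 genes with at least 1 CPM. Against untreated, 1 of the 11 was past the size rule on the higher side after LGG, after E. coli and after PBS. Among all 14450 genes tested, 66, 119 and 96 were. The 22 genes summed to 273, 260, 252 and 199 CPM in the LGG, E. coli, PBS and untreated libraries. The list median was -0.38 in LGG against untreated, -0.20 in E. coli against untreated and -0.34 in PBS against untreated, with 3, 3 and 4 of 11 genes positive. Against untreated the sum was thus higher while the median was negative, so the sum does not describe most of the 11 genes. Against PBS the list median was -0.09 after LGG and 0.08 after E. coli, with 5 and 7 of 11 positive.

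In the cytotoxic list 5 of 18 genes had at least 1 CPM and none was past the rule. Its medians ran from -0.34 in E. coli against untreated to -0.02 in E. coli against PBS. Serpinb9, an inhibitor of granzyme B, was at 9.91, 9.09, 9.22 and 11.5 CPM in the LGG, E. coli, PBS and untreated libraries, and Srgn, the granule proteoglycan serglycin, at 6.63, 7.02, 6.98 and 7.15 CPM.

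The intraepithelial and homing list had, of the 21 genes in the table, 12 with at least 1 CPM. Cxcr6, a chemokine receptor of tissue-resident T cells, was past the rule on the lower side in LGG against PBS, at 0.786 CPM after LGG and 1.87 CPM after PBS (log2 ratio -1.23, -2.10 to -0.42). This was 1 of the 12 genes, and 14 of all 14450 genes tested were past the rule on that side. Cxcr6 was at 1.45 CPM after E. coli and 1.02 CPM without treatment, and in LGG against untreated its ratio was -0.36 (-1.23 to 0.47). The list median was -0.26 in LGG against PBS with 4 of 12 positive, -0.29 in LGG against untreated with 2 of 12 positive and -0.03 in E. coli against untreated. Itga1, an integrin chain that smooth muscle also expresses, and Ahr are named here after their values were seen. Itga1 was at 49.7, 54.7, 58.5 and 65.7 CPM in the LGG, E. coli, PBS and untreated libraries. Ahr, the aryl hydrocarbon receptor that intraepithelial lymphocytes need in mice, was at 23.3, 21.9, 19.8 and 24.3 CPM.

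No gene of the lists for epithelial partners of these cells (15 measured) or for natural killer and innate lymphoid cells (9 of 16 measured) was past the rule in any comparison. Epcam, an epithelial adhesion protein, was at 2119, 2013, 1990 and 1787 CPM in the LGG, E. coli, PBS and untreated libraries. Kit was at 104, 94.2, 98.7 and 138 CPM and Id2 at 39.4, 33.4, 37.5 and 43.3 CPM; Kit also marks the pacemaker cells of the gut muscle.

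**Figure D4:**
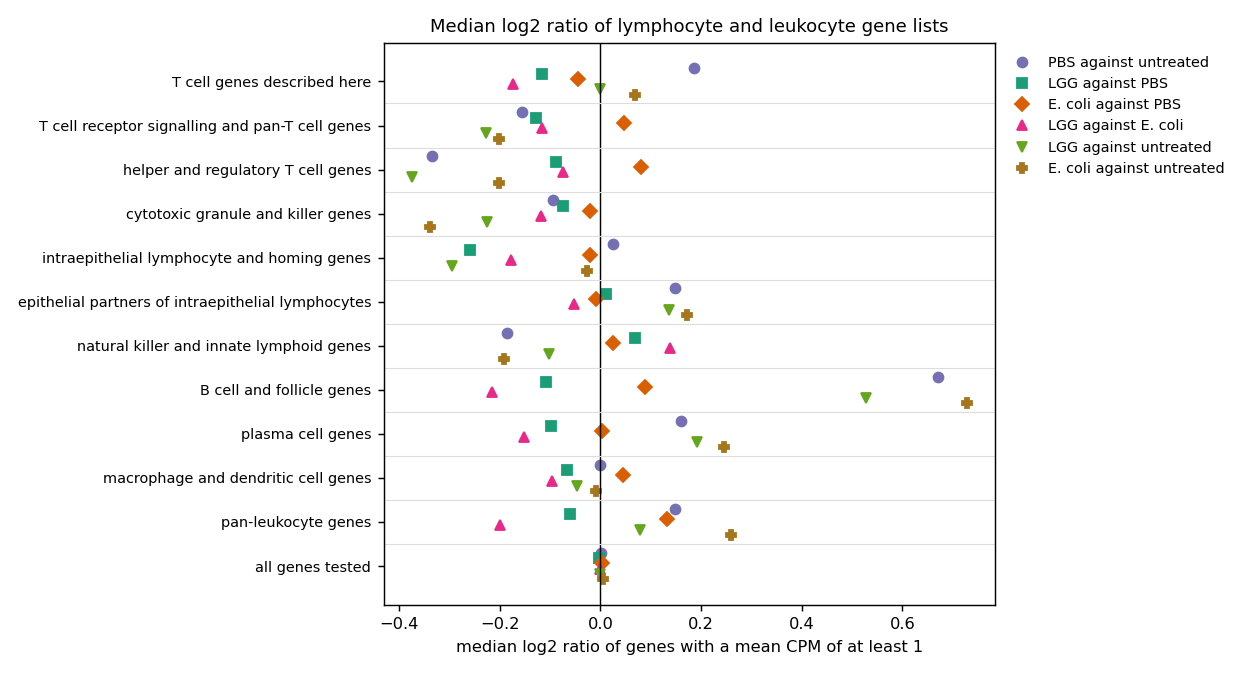
Median log2 ratio of each gene list in the 6 comparisons, over genes with a mean of at least 1 CPM, with all genes tested in the lowest row. The B cell and follicle list lies at 0.53 to 0.73 in the comparisons with untreated, where the list of T cell receptor signalling genes lies at -0.23 to -0.16. The T cell genes described here lie at -0.0014 to 0.19 in the same comparisons.

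T cells in the colon share lymphoid follicles with B cells, whose genes were set beside them. The 18 B cell and follicle genes, none at 0, summed to 88.6 CPM in the LGG, 104 in the E. coli, 95.5 in the PBS and 63.2 CPM in the untreated library, and their median log2 ratio was 0.53 in LGG, 0.73 in E. coli and 0.67 in PBS against untreated, with 16 of 17 positive in each. Cr2, the complement receptor of B cells and follicular dendritic cells, was past the rule in each, at 4.89, 5.92, 4.86 and 2.31 CPM in the LGG, E. coli, PBS and untreated libraries. Fcer2a (1.29 in E. coli, 1.37 in PBS) and Cd79b (1.02 in E. coli) were past it as well against untreated. On the higher side this was 1 of 17 genes after LGG, 3 after E. coli and 2 after PBS. Among all 14450 genes tested, 66, 119 and 96 were. Ccr7, a homing receptor of naive T cells, B cells and dendritic cells, was past the rule on the lower side in PBS against untreated (-1.04, -1.95 to -0.24), at 0.997 CPM after PBS and 2.07 CPM without treatment. On that side 113 of the 14450 genes tested were past it.

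Relative to Ptprc, which encodes the leukocyte marker CD45, the summed CD3 counts were 0.185 (0.149 to 0.227) after LGG, 0.150 (0.121 to 0.185) after E. coli, 0.208 (0.158 to 0.270) after PBS and 0.187 (0.151 to 0.230) without treatment, all overlapping. Relative to Epcam they were 0.00176 (0.00144 to 0.00212) after LGG, 0.00173 (0.00141 to 0.00210) after E. coli, 0.00216 (0.00168 to 0.00274) after PBS and 0.00216 (0.00177 to 0.00260) in untreated colon, again overlapping. The part of B cell content in the Cd8b1 and Cd4 values was not tested.

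**Figure D5:**
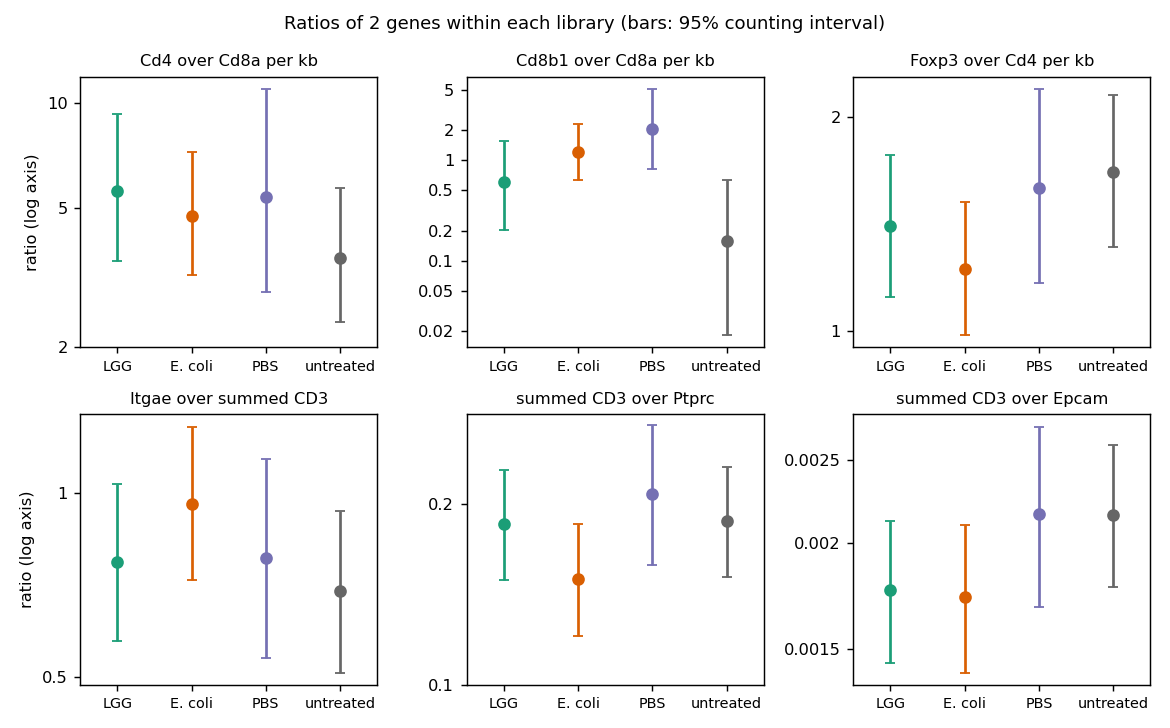
Ratios of counts within each library (log axes, each panel with its own range), with 95% binomial counting intervals; ratios marked per kb are corrected for transcript length. The ratio of Cd8b1 to Cd8a is 0.158 in the untreated library, and the summed CD3 counts stand at 0.150 to 0.208 of Ptprc over the 4 libraries.

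Genes whose levels followed the summed CD3 counts most closely over the 4 libraries were sought among 11432 protein-coding genes with at least 5 CPM. The nearest were Cdc45, Nol3, Bag5, Msantd2 and Wrb, with root mean square differences of 0.00774 to 0.0168 between centred log2 levels. They are little set apart, since 103 of the 11432 genes had a difference of at most 0.05. With only 4 points, and a CD3 profile that itself varied within counting error, this likeness is a description of these libraries.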

How the data were processed

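RNA-seq of colon from 4 conditions, with 1 library each, was read from 1 deposited table with a row per gene symbol. Per the submitters' processing notes, the build was mm9 and the tools were TopHat2 and HOMER; versions, the role of each tool and any use of strand in counting are not stated in the sources at hand. The authors deposited expected counts in steps of 0.5, not scaled to depth, with transcript length and copy number as other columns per the file headers. The origin of counts ending in 0.5, 38.6% of values in the table, is not given; they were rounded to the nearest even whole number. Levels are CPM, counts scaled to the library total times its TMM factor (0.979 LGG, 0.989 E. coli, 0.985 PBS, 1.05 untreated; edgeR 4.0.16, R 4.3.3). Log2 ratios added a prior of 0.5 counts, in proportion to depth. Intervals at the 95% level are exact, Poisson for a level and Clopper-Pearson for a ratio of counts, and cover counting error only, since PCR copies of a molecule cannot be recognised. The size rule (log2 ratio of at least 1 in size, interval excluding 0, mean of at least 1 CPM) ran over the whole table. It was tested on simulated Poisson counts without variation between animals or libraries, so that test covers counting error only. Alternatives were DESeq2 1.42.0 size factors, library totals, upper-quartile factors, other filters, a prior of 5 and a 1.5-fold threshold. Python 3.11.15 with numpy 2.4.6, scipy 1.17.1, pandas 2.3.3 and matplotlib 3.10.9 was used.

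The members and gene lists were chosen with earlier results of these data known. Named genes were the 10 members, the denominators Ptprc and Epcam, the 5 genes nearest to the CD3 profile, and, in each list discussed, the genes past the rule (up to 4, by size of ratio) or, where none passed, the 2 most abundant. Cd247, Itgb7, Itga1, Ahr and the genes whose rows overlap a member (Ccdc22, Ppp1r3fos and Gsg2) were chosen outside this rule, after their values were seen. Lists for plasma, mast, adipocyte, mesothelial, smooth muscle and acinar genes were computed and are given in ranges in the closing section. Some genes that this rule names, and a ratio, are not reported here.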

Additional observations from a re-analysis of the deposited data

How the results depend on the processing

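The count of 0 members past the size rule held in all 6 comparisons with DESeq2 size factors, library totals, upper-quartile factors and unrounded counts. Unrounded counts and the list without Foxp3 and Itgae were chosen after seeing the data. That list could add no gene past the rule, and neither could a prior of 5 counts, which moves ratios toward 0. The count of 0 in these settings is thus no check. A mean of at least 5 CPM leaves Foxp3 alone, so its count of 0 says nothing of the other members. Without the expression filter it was 1, Cd8b1, in PBS against untreated, LGG against PBS, LGG against E. coli and E. coli against untreated, because the filter removes this gene; with counts ending in 0.5 rounded up, an alternative chosen after seeing the data, it was past the rule in 3 of these comparisons and not in LGG against E. coli. With a 1.5-fold threshold it was 1, Cd3g, in E. coli against untreated, on the lower side, where 5.48% of all genes lay. All 48 recomputed medians stayed within the median bounds of the main counting intervals, which are wide: without Foxp3 and Itgae the median was 0.06 in place of -0.12 in LGG against PBS and -0.33 in place of -0.05 in E. coli against PBS. All 30 recomputed CD3 ratios stayed within their main intervals, which are wide next to the shifts that these settings make, so this is a weak check. Library totals moved the median of all genes by up to -0.10, in LGG against untreated. Under that scaling 3 of 60 single ratios changed sign, the largest of them 0.07 in size. No paired analysis was possible because each condition has 1 library. Depth limits Gzma, Gzmb and Cd8b1 most, with 3 to 17 counts in most libraries.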

Other observations

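Other leukocyte genes give the setting of the T cell genes. The 16 pan-leukocyte genes summed to 221 CPM in the LGG, 253 in the E. coli, 235 in the PBS and 210 CPM in the untreated library, and 0 of 16 had a positive ratio in LGG against E. coli, where 49.9% of all genes tested had one, with a median of -0.20 and none past the size rule. Among them Ptpn6, a phosphatase that restrains lymphocyte receptors, was at 40.3, 42.8, 40.1 and 36.4 CPM, and Lcp1, an actin-bundling protein of leukocytes, at 34.5, 44.2, 38.6 and 33.6 CPM in these libraries. The 11 plasma cell genes summed to 881, 813, 822 and 816 CPM. Against untreated, Derl3, an endoplasmic reticulum protein of secretory cells, was past the rule in all 3 gavaged libraries, at 1.58 after LGG, 1.70 after E. coli and 1.78 after PBS, and Mzb1, a chaperone of antibody assembly, at 1.71 after E. coli and 1.33 after PBS. This was 1, 2 and 2 of 10 measured genes after LGG, E. coli and PBS. Among all 14450 genes tested, 66, 119 and 96 were past the rule on that side. Mast cell and granulocyte genes were sparse, at 2.97 to 3.68 CPM summed over 16 genes, of which 5 to 6 were at 0 in each library.

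Summed levels of genes of other tissues also differed between the libraries. Adipocyte genes summed to 432 CPM after LGG, 306 after E. coli, 347 after PBS and 426 CPM without treatment, mesothelial genes to 22.8, 16.8, 37.9 and 43.7 CPM, acinar genes to 240, 339, 230 and 133 CPM, and smooth muscle genes to 12606, 11528, 12612 and 13729 CPM. Their part in the T cell values was not tested.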
